A study of Homo sapiens with 6 samples.

Results

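Interferon-stimulated genes and RNA sensors form a set of 51 human genes whose transcripts rise when a cell detects a virus or receives interferon, together with the proteins that recognise viral RNA. The members were taken as the rows of the deposited count table whose gene symbol equals a listed symbol, and all 51 were found among 58735 rows. These rows held 57167 distinct symbols, and the first row with a member's symbol was used. A total of 49 members passed the filter on low counts and were tested beside 15935 genes in all. MX2 had 0 counts in every sample, and XAF1 had 0 counts in 5 samples and 4 counts in TAK1 shRNA replicate 3, so both stayed untested.

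The samples were RD cells, an established line of embryonal rhabdomyosarcoma (ERMS), a childhood tumour with features of immature skeletal muscle. In the control group (n = 3) the cells had received lentivirus carrying a scrambled shRNA, and in the TAK1 knockdown group (n = 3) lentivirus carrying an shRNA against TAK1, the kinase encoded by MAP3K7. The study asked what the cells express when TAK1 is reduced. Both groups carried a lentivirus and an shRNA, there was no untransduced group, and 1 TAK1 shRNA sequence was used for RNA-Seq, so effects of the knockdown and of that construct cannot be told apart. The labels do not say whether replicates were separate transductions, and the p-values measure the spread between these samples, which may be technical. In bulk RNA, fewer cells expressing a gene and less RNA per cell cannot be told apart.

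Cells detect foreign RNA with the helicases RIG-I and MDA5 in the cytoplasm, which signal through MAVS and the kinase TBK1 to the factors IRF3 and NF-kB, and so to interferon genes. Secreted interferon acts through JAK kinases on a complex of STAT proteins, STAT2 among them, with IRF9. That complex binds a short element, the interferon-stimulated response element (ISRE), near the start of its target genes. Many targets hold a basal level without added interferon, and some, the IFIT genes and ISG15 among them, can also be switched on directly by interferon regulatory factors. TAK1 itself is a kinase upstream of NF-kB and of the JNK and p38 kinases.

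The targeted gene was checked first. MAP3K7 was at 77.9, 76.5 and 77.6 CPM (counts scaled to a common library total, after TMM correction) in the control samples and at 30.5, 33.6 and 29.9 CPM in the TAK1 knockdown samples. The groups were far apart, and the log2 fold change was -1.30 (standard error, SE, 0.062; edgeR quasi-likelihood test with Benjamini-Hochberg adjustment, adjusted p = 4.45e-14). Total counts ran from 28839898 to 34469323 per sample, where 3 counts correspond to 0.0849 to 0.106 CPM. The summed level of 10 myogenic markers was 2370 to 2400 CPM in the control and 2240 to 2390 CPM in the knockdown samples, with MYOD1, MYOG and MYH8 higher, CHRNA1 lower and MYF5 at 0 counts in all samples. The sum over 8 leukocyte markers stayed between 0.195 and 0.572 CPM in the control and between 0.274 and 0.481 CPM in the knockdown samples, and CD3E and TYROBP were at 0 throughout. The 4 endothelial markers summed to 2.98 to 3.65 and 1.78 to 2.75 CPM, mostly from TEK, and 4 epithelial markers to 0.0703 to 0.259 and 0.0684 to 0.453 CPM, in the control and knockdown samples. Their part in the values below was not tested.

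TAK1 knockdown RD cells had lower RNA levels of the OAS genes, of IFIT1, IFIT2 and IFIT3, and of ISG15. RNA of the sensor genes IFIH1 (MDA5) and DDX58 (RIG-I) was also lower, though the DDX58 call depended on which samples were kept. The PARP genes and the interferon-activated transcription factors passed no call. A gene was called changed where its adjusted p was under 0.05 and its log2 fold change was 0.25 or more in size. By that rule 18 members were lower and 4 higher, and 27 tested members were not called. The lower calls amount to 36.7% of tested members, where 11.3% of all tested genes were called lower. The higher calls amount to 8.16%, where 11.8% of all tested genes were called higher. The members were chosen with earlier results of these data known, so these shares describe the set and do not test it. The median log2 fold change was -0.16 over the tested members and 0.018 over all tested genes. On the adjusted p alone, 22 of the 49 tested members were lower and 4 higher. By that looser rule 2734 of the 15935 tested genes were lower and 2569 higher.

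In CPM, the 3 knockdown samples did not overlap the 3 control samples for 29 of the tested members, or 59.2%, where the share over all tested genes was 43.9%. The knockdown samples lay below in 24 of these and above in 5. Over all 15935 tested genes they lay below in 3542 and above in 3449. The calls split by group. Among the sensors and RNA-binding effectors 4 of 6 members were lower, among the IFIT genes 3 of 4, and among the OAS genes 4 of 4. None of the 4 PARP-group genes and none of the 4 transcription factors were called in either direction. Over all tested genes 11.3% were called lower and 11.8% higher, and differences between these small groups were not tested. The summed level of the set was 2321 to 2340 CPM in the control samples and 2006 to 2042 CPM in the knockdown samples. Abundant members weigh most in this sum. In the control and knockdown samples, ADAR had means of 487 and 352 CPM, and LGALS3BP of 166 and 248 CPM.

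**Figure D1:**
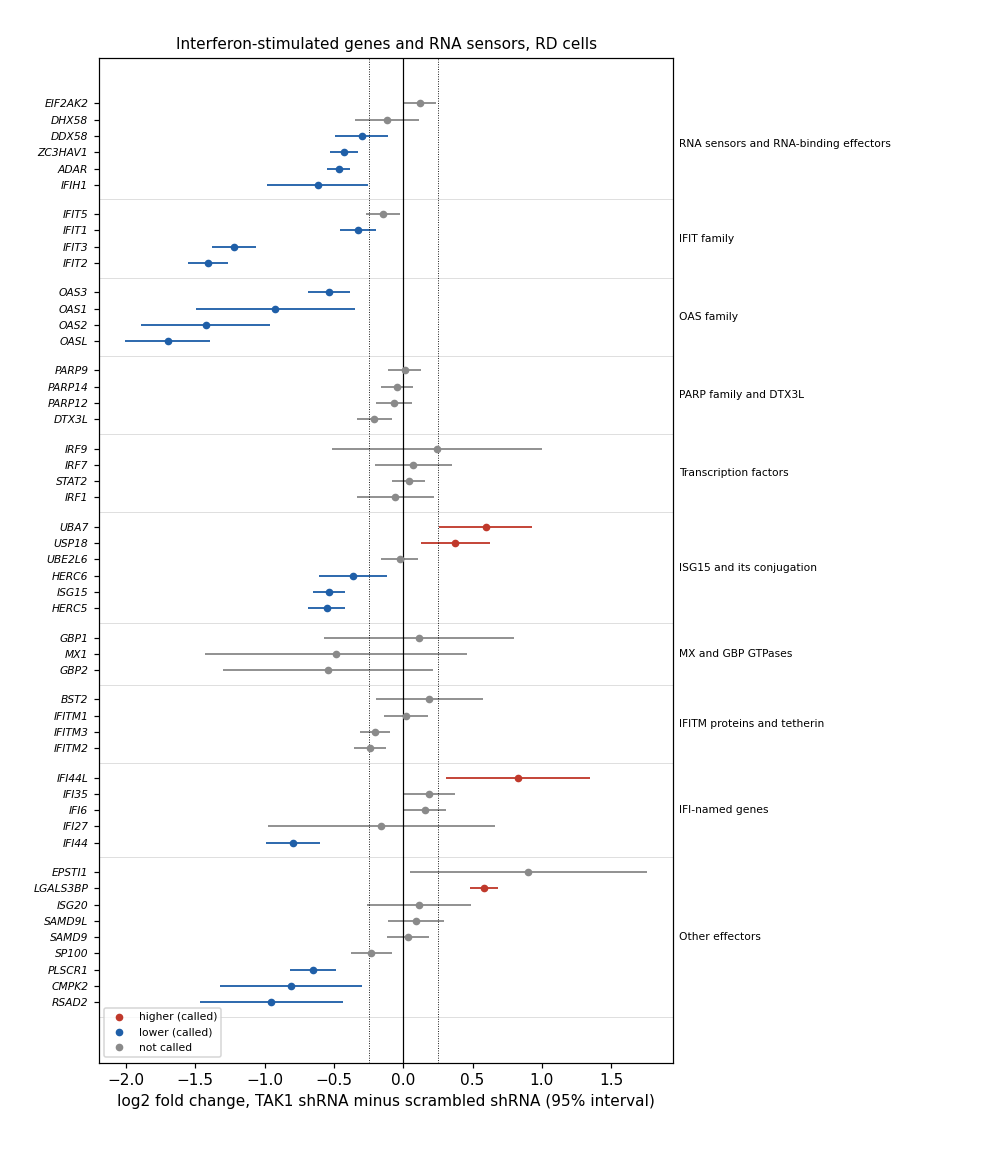
Log2 fold change of each tested member, TAK1 shRNA minus scrambled shRNA, with its 95% interval from edgeR (n = 3 a group), in the groups used in the text. Dotted lines mark 0.25 in either direction, blue points are lower calls, red points higher calls and grey points not called. The OAS genes lie between -1.70 and -0.54, and the PARP group lies between -0.21 and 0.01.

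**Figure D2:**
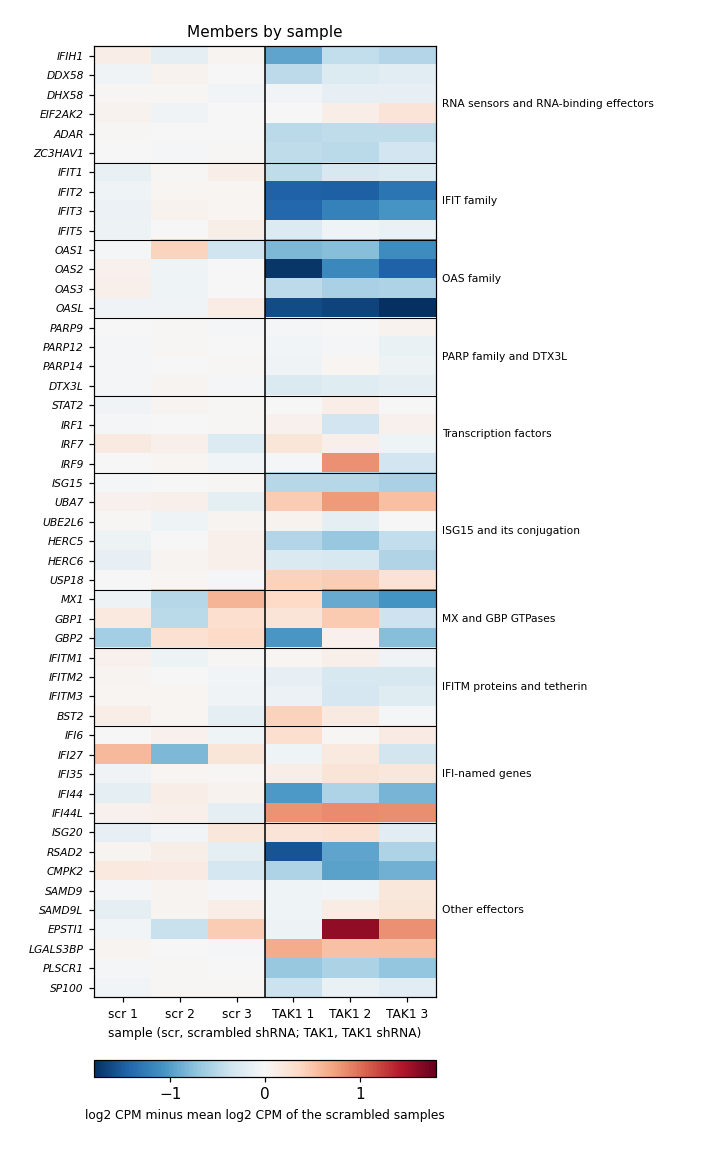
Each tested member in each of the 6 samples, coloured by log2 CPM minus the mean log2 CPM of the scrambled samples (blue lower, red higher). Differences run from -1.81 to 1.59. OASL, OAS2, IFIT2 and IFIT3 are deep blue in all 3 TAK1 shRNA samples, and RSAD2 is deep blue in TAK1 shRNA replicate 1.

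Promoter windows from RefSeq (GRCh38.p14, from 250 bases before to 50 bases after each annotated start) were held for 41 of the 51 members. OASL, OAS2 and IFIT2, the members with the largest falls, had no window and were not searched. The higher members UBA7 and USP18 had none either, nor did DHX58, IRF7, MX2, GBP2 and IFITM2. The ISRE core was searched on both strands as GAAA, any 2 bases and GAAA again, which reads on the other strand as TTTC, any 2 bases and TTTC. It was present in 27 of the 41 members (65.9%) and in 1195 of 27305 genes with a window (4.38%). Of the lower members with a window 9 of 15 held it (60%), and of those not called 16 of 23 (69.6%). Both higher members with a window, IFI44L and LGALS3BP, held it. The gamma-activated site, another interferon-response element, searched as TTC, any 3 bases and GAA, was in 12 of the 41 members (29.3%) and in 9.38% of all genes with a window. It was in 3 of 15 lower members (20%) and in 9 of 23 not called (39.1%). A match is a description of these letters and not evidence of binding.

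The stretches below show the ISRE core, in capitals, in members that were lower, higher and not called, each 5′ to 3′ on the strand of its gene. Overlapping matches are written as 1 run of capitals. They are given because the same core stands in promoters of members whose RNA differed in direction.
IFIT1 (lower, chr10:89392487-89392549, plus strand): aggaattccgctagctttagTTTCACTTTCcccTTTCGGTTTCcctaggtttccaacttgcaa
IFIT3 (lower, chr10:89327855-89327904, plus strand): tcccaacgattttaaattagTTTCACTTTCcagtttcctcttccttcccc
OAS3 (lower, chr12:112938311-112938360, plus strand): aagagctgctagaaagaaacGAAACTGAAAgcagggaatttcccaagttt
IFIH1 (lower, chr2:162318808-162318863, minus strand): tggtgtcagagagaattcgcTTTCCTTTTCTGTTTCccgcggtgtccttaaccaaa
ISG15 (lower, chr1:1013364-1013419, plus strand): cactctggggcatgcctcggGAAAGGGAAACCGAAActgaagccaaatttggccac
IFI44 (lower, chr1:78649751-78649788, plus strand): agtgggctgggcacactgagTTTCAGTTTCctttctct
IFIT5 (not called, chr10:89414503-89414567, plus strand): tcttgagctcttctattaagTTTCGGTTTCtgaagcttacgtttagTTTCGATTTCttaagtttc
PARP14 (not called, chr3:122680790-122680838, plus strand): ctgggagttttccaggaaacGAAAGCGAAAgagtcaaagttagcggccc
IFI44L (higher, chr1:78620264-78620313, plus strand): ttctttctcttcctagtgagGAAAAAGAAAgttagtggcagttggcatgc
LGALS3BP (higher, chr17:78979952-78980001, minus strand): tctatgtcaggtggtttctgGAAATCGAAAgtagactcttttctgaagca

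The first group holds the RNA sensors and RNA-binding effectors. IFIH1, which encodes MDA5, the sensor of long double-stranded RNA, was at 4.68, 3.81 and 4.48 CPM in the control samples and at 2.22, 3.17 and 3.00 CPM in the knockdown samples. All 3 knockdown samples lay below the lowest control, and the log2 fold change was -0.62 (SE 0.18, edgeR adjusted p = 0.0086). DDX58, which encodes RIG-I, the sensor of RNA ends made by viral polymerases, was at 16.8, 18.4 and 17.7 CPM against 12.7, 14.9 and 15.2 CPM. The groups did not overlap, and its log2 fold change was -0.30 (SE 0.091, edgeR adjusted p = 0.012). This call was lost without scrambled replicate 2 (log2 fold change -0.27, edgeR adjusted p = 0.069) and without TAK1 shRNA replicate 1 (-0.23, edgeR adjusted p = 0.063). DHX58 encodes LGP2, a helicase of the same family without the signalling domain. It was at 8.69, 8.67 and 8.24 CPM against 8.21, 7.73 and 7.66 CPM, a log2 fold change of -0.12 with a 95% interval from -0.35 to 0.11, and was not called (edgeR adjusted p = 0.46).

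ADAR encodes the enzyme that edits adenosine to inosine in double-stranded RNA and so keeps a cell's own RNA from being sensed. It was at 495, 482 and 483 CPM in the control samples and at 349, 354 and 353 CPM in the knockdown samples. It fell by 27.7%, far more than the spread within each group, and the log2 fold change was -0.47 (SE 0.041, edgeR adjusted p = 2.6e-09). ZC3HAV1, the zinc-finger antiviral protein ZAP that binds CpG-rich viral RNA, was at 159, 155 and 160 CPM against 115, 113 and 124 CPM. It fell in all 3 samples, with a log2 fold change of -0.43 (SE 0.049, edgeR adjusted p = 2.0e-07). EIF2AK2 encodes PKR, the kinase that halts translation when double-stranded RNA is present. It was at 146, 134 and 139 CPM against 139, 151 and 164 CPM. The groups overlapped, and with a log2 fold change of 0.12 (SE 0.056, edgeR adjusted p = 0.11) it was not called. It was thus the 1 sensor with a positive value, and none of the 6 were called higher.

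**Figure D3:**
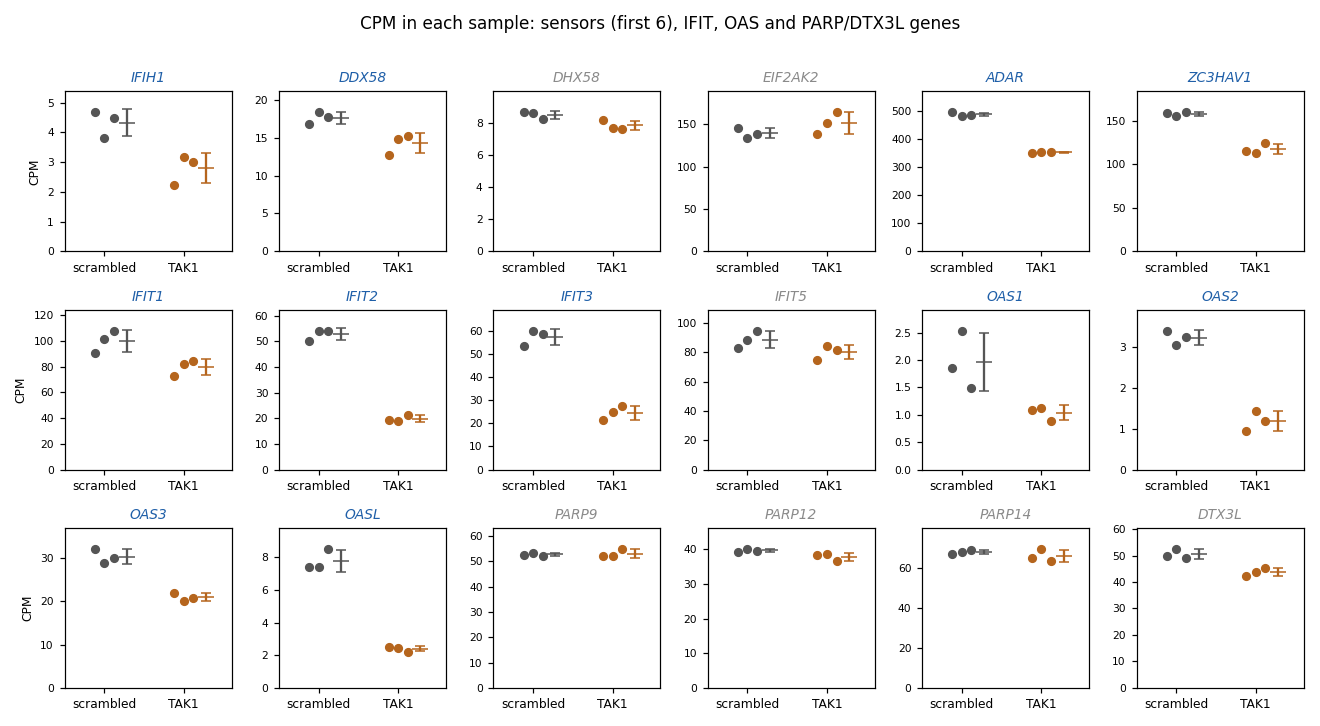
CPM in each sample for the 18 genes of the sensor, IFIT, OAS and PARP groups, with scrambled shRNA samples in grey and TAK1 shRNA samples in orange; crosses with bars are means and SD (n = 3), and every axis starts at 0. Gene names are blue where called lower and grey where not called; OASL went from a mean of 7.77 to 2.39 CPM, and PARP9 from 52.7 to 53.1 CPM.

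The IFIT genes encode tetratricopeptide proteins, some of which bind the ends of viral RNA and block its translation. They lie side by side on the plus strand of chromosome 10 (GENCODE 44, GRCh38), IFIT2 at chr10:89283694-89309271, IFIT3 at chr10:89327307-89377473, IFIT1 at chr10:89392546-89406487 and IFIT5 at chr10:89414568-89421605. The level in the cluster fell most at IFIT2 and IFIT3. IFIT2 was at 50.3, 54.2 and 54.2 CPM in the control samples and at 19.2, 19.1 and 21.3 CPM in the knockdown samples. It fell by 62.4%, and its log2 fold change was -1.41 (SE 0.070, edgeR adjusted p = 1.0e-13). IFIT3 was at 53.6, 60.2 and 58.9 CPM against 21.6, 24.8 and 27.7 CPM, a log2 fold change of -1.22 (SE 0.077, edgeR adjusted p = 6.9e-12). In both genes every knockdown sample lay far below every control sample.

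IFIT1, the family member that recognises RNA caps lacking methylation, was at 90.8, 101.2 and 108 CPM against 72.8, 82.0 and 84.3 CPM. The groups did not overlap but stood close, and the log2 fold change was -0.33 (SE 0.063, edgeR adjusted p = 0.00023). IFIT5, at the far end of the cluster, was at 83.2, 88.2 and 94.97 CPM against 74.8, 84.4 and 81.5 CPM. These ranges overlapped, and with a log2 fold change of -0.15 (95% interval -0.27 to -0.02, edgeR adjusted p = 0.059) it was not called. The intervals of IFIT2 and IFIT3 lie wholly below those of IFIT1 and IFIT5, and the difference between genes was not itself tested. Exons of IFIT2 and IFIT3 overlap LIPA on the opposite strand, and the use of strand in counting is not given in the sources used here, so shared reads cannot be told apart. LIPA, a lysosomal lipase gene, was at 95.4 ± 4.63 CPM (SD, n = 3) and 106 ± 0.605 CPM (SD, n = 3) in the control and knockdown samples. Its log2 fold change of 0.16 (edgeR adjusted p = 0.019) was opposite in direction to both IFIT genes, but LIPA missed the fold threshold and was not called.

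The OAS genes encode oligoadenylate synthetases, which sense double-stranded RNA and make a small nucleotide signal that leads to decay of RNA in the cell. All 4 were lower, and all 4 had knockdown samples below every control. OASL, the family member that lacks synthetase activity and binds RIG-I, was at 7.39, 7.40 and 8.53 CPM in the control samples and at 2.53, 2.43 and 2.21 CPM in the knockdown samples. It fell by 69.2%, the largest fall among the tested members, with a log2 fold change of -1.70 (SE 0.15, edgeR adjusted p = 2.2e-09). OAS2 was at 3.41, 3.05 and 3.24 CPM against 0.958, 1.44 and 1.18 CPM, a log2 fold change of -1.42 (SE 0.23, edgeR adjusted p = 2.1e-05). In neither gene did the groups come near each other.

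OAS3, which binds long double-stranded RNA and was the most abundant OAS transcript here per kilobase of exon, was at 32.2, 28.9 and 30.1 CPM against 22.0, 20.2 and 20.8 CPM. Its log2 fold change was -0.54 (SE 0.075, edgeR adjusted p = 3.7e-06). OAS1 was at 1.86, 2.54 and 1.49 CPM against 1.09, 1.13 and 0.878 CPM, with a log2 fold change of -0.92 (SE 0.28, edgeR adjusted p = 0.012). Its gap was narrow next to the spread of the controls, and without scrambled replicate 2, the highest of them, the call was lost (log2 fold change -0.69, edgeR adjusted p = 0.12). OAS1 at chr12:112905856-112933219, OAS3 at chr12:112938051-112976460 and OAS2 at chr12:112978395-113011723 are neighbours on chromosome 12. OASL stands apart on the same chromosome at chr12:121017763-121039246.

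The PARP group holds PARP9, PARP12 and PARP14, ADP-ribosyltransferase family members induced by interferon, and DTX3L, the ubiquitin ligase that works as a complex with PARP9. None of these 4 genes passed the call, where 11.8% of all tested genes were called higher and 11.3% lower. The difference from the 3 groups above was not tested. PARP9 was at 52.6, 53.5 and 52.2 CPM in the control samples and at 51.9, 52.3 and 55.0 CPM in the knockdown samples. Its log2 fold change of 0.01 had a 95% interval from -0.11 to 0.13, which leaves out a change as large as the threshold (edgeR adjusted p = 0.93). The sign of this value turned without scrambled replicate 3 and without TAK1 shRNA replicate 3. PARP14 was at 66.8, 68.04 and 68.7 CPM against 64.7, 69.4 and 63.4 CPM, with a log2 fold change of -0.04 (95% interval -0.16 to 0.07, edgeR adjusted p = 0.61) that turned positive under scaling by library size alone.

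PARP12 was at 39.2, 40.1 and 39.6 CPM against 38.3, 38.6 and 36.5 CPM. The groups did not overlap, although the log2 fold change was only -0.07 (95% interval -0.20 to 0.06, edgeR adjusted p = 0.45). DTX3L was at 49.97, 52.6 and 49.3 CPM against 42.4, 43.7 and 45.2 CPM. It passed the adjusted p but not the fold, with a log2 fold change of -0.21 (SE 0.061, edgeR adjusted p = 0.0090). PARP9 and DTX3L start from opposite strands of the same stretch of chromosome 3 and their annotated exons overlap, so reads from that stretch cannot be told apart.

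The interferon-activated transcription factors were not called. STAT2, a subunit of the complex that binds the ISRE, was at 62.2, 67.5 and 66.1 CPM in the control samples and at 65.4, 71.1 and 64.6 CPM in the knockdown samples. The groups overlapped, and the 95% interval of its log2 fold change ran from -0.08 to 0.16. IRF1, which activates many of these genes on its own, had a log2 fold change of -0.06 (interval -0.34 to 0.22). IRF7, the amplifier of interferon gene expression, had a value of 0.07 (interval -0.21 to 0.35). IRF9, the DNA-binding subunit of the ISRE complex, stood at only 0.636 to 1.42 CPM, and its interval from -0.51 to 1.00 leaves its direction undecided.

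ISG15 is a ubiquitin-like protein that UBA7 activates, UBE2L6 carries, HERC5 attaches to new proteins and USP18 removes. ISG15 was at 66.9, 68.7 and 69.8 CPM in the control samples and at 47.8, 47.8 and 45.9 CPM in the knockdown samples. It fell by 31.1%, with a log2 fold change of -0.54 (SE 0.057, edgeR adjusted p = 4.9e-08). HERC5, the main human ISG15 ligase, was at 70.6, 75.8 and 80.5 CPM against 52.3, 47.0 and 55.6 CPM, a log2 fold change of -0.55 (SE 0.065, edgeR adjusted p = 3.1e-07). The modifier and its ligase thus fell to a like extent, with intervals from -0.65 to -0.42 and from -0.69 to -0.42.

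UBA7 and USP18 went the other way. UBA7, the E1 enzyme of the pathway, was at 3.34, 3.37 and 2.79 CPM against 4.31, 5.38 and 4.60 CPM, a log2 fold change of 0.59 (SE 0.16, edgeR adjusted p = 0.0063). USP18, the protease that takes ISG15 off and also damps the interferon receptor, was at 6.01, 6.19 and 5.97 CPM against 8.10, 8.24 and 7.24 CPM. All 3 knockdown samples lay above the controls, and its log2 fold change was 0.38 (SE 0.12, edgeR adjusted p = 0.019). That call was lost without scrambled replicate 3 (0.36, edgeR adjusted p = 0.062) and without TAK1 shRNA replicate 2 (0.34, edgeR adjusted p = 0.063). USP18 has a near copy, USP41, at 3.12 ± 0.259 CPM and 3.74 ± 0.577 CPM (SD, n = 3) in the control and knockdown samples. Reads could be split between these copies, so the level of USP18 is uncertain.

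UBE2L6, the E2 enzyme, was at 49.3 to 53.7 CPM in the control and 46.4 to 54.4 CPM in the knockdown samples and was not called (log2 fold change -0.03, 95% interval -0.16 to 0.11). HERC6, a relative of HERC5, was at 8.30, 9.53 and 9.83 CPM against 7.66, 7.53 and 6.33 CPM. It was called lower at a log2 fold change of -0.36 (SE 0.12, edgeR adjusted p = 0.021). This call was lost on the adjusted p without scrambled replicate 2 (-0.34, edgeR adjusted p = 0.079), without scrambled replicate 3 (-0.32, edgeR adjusted p = 0.099) and without TAK1 shRNA replicate 3 (-0.29, edgeR adjusted p = 0.083). The log2 fold change stayed between -0.43 and -0.29 whichever sample was left out.

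The MX and GBP genes encode large GTPases that act on viral capsids and pathogen membranes, and they were near the lower edge of detection. MX1 was at 0.445 to 0.973 CPM in the control and 0.303 to 0.821 CPM in the knockdown samples. GBP1 was at 0.730 to 1.26 CPM and 0.788 to 1.42 CPM, and GBP2 at 0.739 to 1.43 CPM and 0.547 to 1.19 CPM. The groups overlapped for all 3 and none were called. The 95% intervals of the log2 fold change, from -1.43 to 0.46 for MX1 and from -1.30 to 0.21 for GBP2, hold both 0 and the value of OAS1. MX2 was at 0 of up to 34469323 counts per sample, which allows up to 0.0849 CPM there, with counting error alone in view.

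IFITM1, IFITM2 and IFITM3 encode small membrane proteins that hinder fusion of viruses with the cell, and BST2 encodes tetherin, which holds new virus at the cell surface. IFITM3 was at 179.6, 180.3 and 168 CPM in the control samples and at 163, 143 and 151 CPM in the knockdown samples. The groups did not overlap, and its log2 fold change of -0.20 passed the adjusted p (edgeR, 0.0033) but not the fold. IFITM2 did likewise, with means of 93.0 ± 3.12 and 78.9 ± 4.69 CPM (SD, n = 3) and a log2 fold change of -0.24 (edgeR adjusted p = 0.0013). IFITM1 had a log2 fold change of 0.02 (95% interval -0.14 to 0.18) and BST2 of 0.19 (interval -0.20 to 0.57), and neither was called. The IFITM genes have similar sequences and lie close together on chromosome 11, so their counts may share reads.

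Among the genes named for induction by interferon, IFI44 and IFI44L differed in direction although they are neighbours on chromosome 1, IFI44L at chr1:78619902-78646145 and IFI44 at chr1:78649796-78664078. IFI44 was at 36.2, 44.5 and 43.0 CPM in the control samples and at 20.1, 27.9 and 23.0 CPM in the knockdown samples. It fell by 42.5%, a log2 fold change of -0.80 (SE 0.094, edgeR adjusted p = 2.9e-07). IFI44L was at 1.196, 1.207 and 1.005 CPM against 1.98, 2.04 and 2.03 CPM, a log2 fold change of 0.83 (SE 0.25, edgeR adjusted p = 0.013). The knockdown samples of each gene lay wholly on one side of its controls, and the 95% intervals, from -0.99 to -0.60 and from 0.31 to 1.35, do not meet. The IFI44L call was lost without scrambled replicate 3 (0.75, edgeR adjusted p = 0.059), and IFI44L was the less abundant gene by far, both in CPM and per kilobase of exon.

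IFI6, an antiviral membrane protein, had a log2 fold change of 0.15 (95% interval -0.0017 to 0.31) and was not called. IFI35, a partner of NMI, was at 12.03, 12.95 and 12.81 CPM against 13.6, 14.8 and 14.5 CPM. These samples did not overlap, but the log2 fold change of 0.19 missed the threshold (edgeR adjusted p = 0.13). IFI27 was at 0.413 to 1.09 CPM over the 6 samples, too low to give a direction (interval -0.98 to 0.66).

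A further 10 members are other effectors. PLSCR1, an antiviral phospholipid scramblase, was at 22.1, 22.8 and 22.3 CPM in the control samples and at 13.88, 15.004 and 13.81 CPM in the knockdown samples. The groups were far apart, with a log2 fold change of -0.65 (SE 0.082, edgeR adjusted p = 7.6e-07). RSAD2, which encodes viperin, the enzyme that makes a chain-terminating nucleotide, was at 2.71, 2.83 and 2.34 CPM against 0.889, 1.36 and 1.79 CPM, a log2 fold change of -0.95 (SE 0.25, edgeR adjusted p = 0.0045). CMPK2, the nucleotide kinase that supplies viperin, was at 2.57, 2.51 and 1.82 CPM against 1.54, 1.16 and 1.24 CPM. It was lower by -0.81 on the log2 scale (SE 0.25, edgeR adjusted p = 0.014), and lost the call without scrambled replicate 1 (-0.72, edgeR adjusted p = 0.061) and without scrambled replicate 2 (-0.74, edgeR adjusted p = 0.065). RSAD2 and CMPK2 lie head to head on chromosome 2 with overlapping exons, so their counts may not be independent.

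LGALS3BP, a secreted glycoprotein that binds galectin-3, was the most abundant of the 4 higher members per kilobase of exon. It was at 171, 165 and 161 CPM against 263, 239 and 241 CPM. It rose by 49.5%, with a log2 fold change of 0.58 (SE 0.048, edgeR adjusted p = 8.4e-10). SP100, a nuclear body protein, passed the adjusted p but not the fold, at -0.23 (edgeR adjusted p = 0.015). SAMD9, SAMD9L and ISG20 had log2 fold changes of 0.04, 0.09 and 0.11, and none were called. EPSTI1 had the highest positive value of the set, 0.90, but ranged from 0.513 to 1.64 CPM among the knockdown samples, overlapped the controls and was not called (95% interval 0.05 to 1.76, edgeR adjusted p = 0.10).

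Other genes of interferon induction and response give the setting of these members. Of 57 such genes, 40 were tested, and 4 were higher (10%) and 6 lower (15%), with a median log2 fold change of 0.046. These shares stand near those over all tested genes, 11.8% higher and 11.3% lower. Among the ligands, 9 of 10 interferon genes, IFNB1 included, had 0 counts in every sample, and IFNL1 had at most 9 counts in a sample. The receptors and the JAK kinases and STATs passed no call. IFNAR1, a chain of the receptor for interferon alpha and beta, had a log2 fold change of -0.0025 (interval -0.12 to 0.11).

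In the path from RIG-I to the interferon genes, 6 of 9 tested genes were called, 4 higher (44.4%, where all tested genes gave 11.8%) and 2 lower (22.2%, where all tested genes gave 11.3%). MAVS, the adaptor of RIG-I and MDA5 on mitochondria, was at 139.8, 144 and 132 CPM against 183, 172 and 179 CPM, a log2 fold change of 0.36 (SE 0.049, edgeR adjusted p = 2.2e-06). TRIM25, a ubiquitin ligase for RIG-I, rose by 34.01% (log2 fold change 0.42, edgeR adjusted p = 7.7e-07), NLRX1, a mitochondrial regulator of MAVS, by 42.3% (0.51, edgeR adjusted p = 0.0013) and TRAF3, a ligase between MAVS and TBK1, by 21.8% (0.28, edgeR adjusted p = 0.00030). TBK1, the kinase of IRF3, was at 34.3, 34.1 and 31.9 CPM against 23.5, 25.9 and 23.7 CPM, a log2 fold change of -0.46 (SE 0.072, edgeR adjusted p = 2.0e-05). TANK, a scaffold of TBK1, was at a log2 fold change of -0.29 (edgeR adjusted p = 0.0014), and dropped below the fold threshold without TAK1 shRNA replicate 1 and under scaling by library size alone, at -0.24 in both cases.

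The remaining lower calls in that list were CGAS, the sensor of cytosolic DNA (log2 fold change -0.60, edgeR adjusted p = 8.9e-07), MYD88, the adaptor of most Toll-like receptors (-0.30, edgeR adjusted p = 0.00047), APOBEC3B, a cytidine deaminase (-0.38, edgeR adjusted p = 6.7e-05), and PNPT1, a mitochondrial RNA-degrading enzyme (-0.29, edgeR adjusted p = 7.2e-05). PNPT1 fell short of the fold threshold under scaling by library size alone, at -0.24. IRF3, which TBK1 activates, had a log2 fold change of -0.18 (edgeR adjusted p = 0.017) and was not called for its size.

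**Figure D4:**
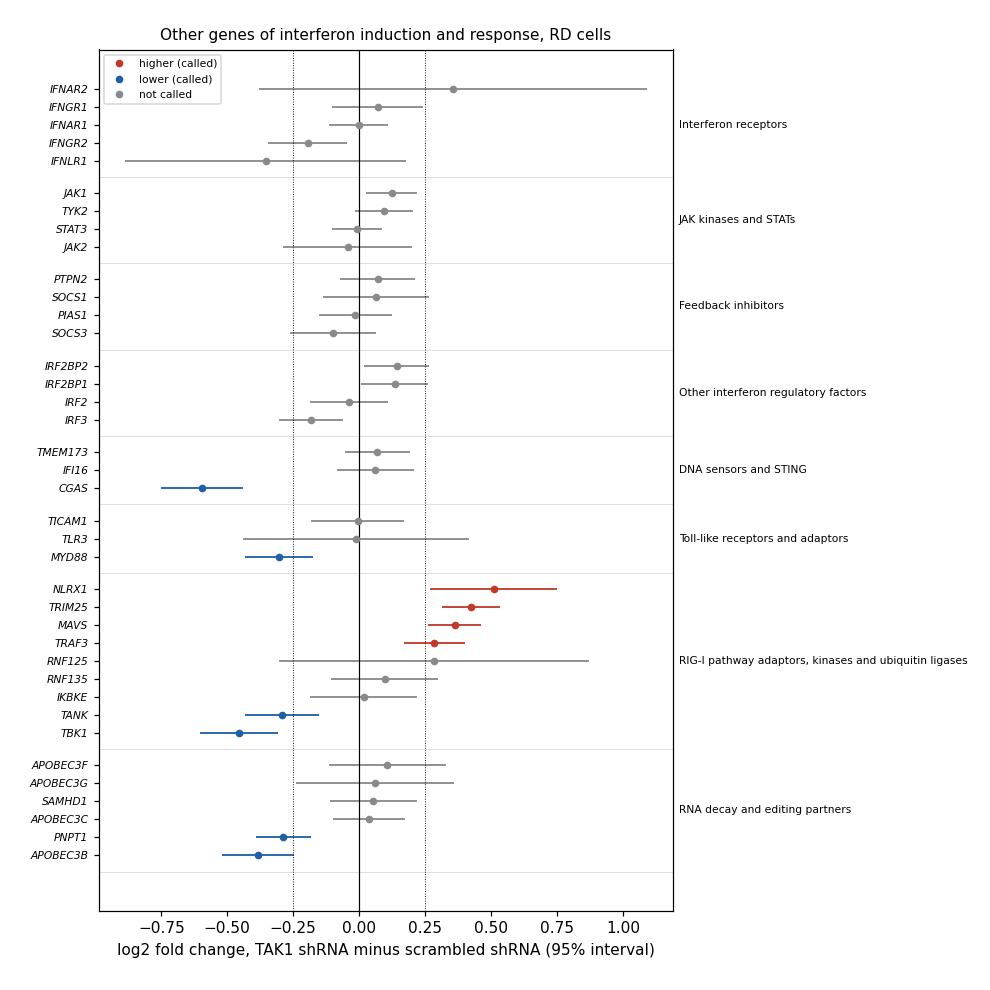
Log2 fold change of 38 of the 40 tested genes of interferon induction and response outside the set, TAK1 shRNA minus scrambled shRNA, with 95% intervals from edgeR (n = 3 a group) and dotted lines at 0.25 in either direction. MAVS, TRIM25, NLRX1 and TRAF3 (red) lie above the threshold, and CGAS, TBK1, APOBEC3B, MYD88, TANK and PNPT1 (blue) lie below it.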

How the data were processed

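Poly(A)-enriched RNA of RD cells was sequenced in paired-end mode. The authors removed reads with adaptors, uncertain bases or low quality, aligned the rest to GRCh38 with STAR after CASAVA base calling, and deposited raw counts per gene without normalization; the counter, annotation and strand use are not given in the sources used here. Genes were filtered with edgeR's default, scaled by the trimmed mean of M-values (TMM) and compared with edgeR 4.0.16 (R 4.3.3) by the quasi-likelihood test, with Benjamini-Hochberg adjustment over 15935 genes. SEs were taken from the log2 fold change and its F statistic. The tested genes held at least 99.9% of counts, and the common biological coefficient of variation was 5.67%. Replicates differed by more than sampling noise (chi-square per degree of freedom 2.88 to 8.74). Named were all members of the sensor, IFIT, OAS and PARP groups, other called or untested members and called genes of the pathway list. Other genes in the text were named after their values were seen, and some genes of the lists are not reported here. The members and lists were chosen with earlier results of these data known. Alternatives were DESeq2 1.42.0, other scalings, filters and fold thresholds, a replicate block and leaving out each sample. GENCODE 44 gave positions. An overlap with another annotated gene's exons was found for 21 members, 8 of the 22 called among them.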

Additional observations from a re-analysis of the deposited data

How the results depend on the processing

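The members gave 4 higher and 18 lower calls under DESeq2, RLE normalization, scaling by library size alone, no filter on low counts, a minimum of 10 counts in every sample, and with a replicate block (all genes 1942 higher and 1848 lower with the block). The numbers of the samples carry no stated pairing. Deviations from the group mean correlated at 0.037, 0.0364 and 0.0165 in same-numbered samples, and at -0.0524 to 0.019 in differently numbered ones. The block lowered some adjusted p-values, that of IFIT5 from 0.059 to 0.014 (edgeR). It changed no member's call and is given only here. Leaving out 1 sample at a time gave 2 to 5 higher and 14 to 19 lower members. The 2 came without scrambled replicate 3, where USP18 and IFI44L missed the threshold. Of 39 named genes, 29 kept their call and sign under the other test, scalings, filters, the block and each sample left out; the fold thresholds were applied to counts only. Signs turned for PARP9, to -5.068e-05 without scrambled replicate 3 and -0.02809 without TAK1 shRNA replicate 3 (range of the 6 fits that leave out a sample -0.02809 to 0.02326), and for PARP14, to 0.005692 under scaling by library size alone. At a fold threshold of 0.5 the members gave 3 higher and 13 lower, all genes 735 and 680, and the pathway list 1 and 1. With no fold threshold the members gave 4 higher and 22 lower, and 2734 of all genes were lower. Scaling by library size alone moved the share of higher calls among all genes from 51.0% to 62.9% (2376 higher, 1404 lower) and the median of all genes from 0.0176 to 0.0659, while higher calls stayed 18.2% of those among members. Depth limits members near 1 CPM, such as MX1, GBP1, GBP2, IFI27, IRF9 and EPSTI1, whose intervals are wide.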

Other observations

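Levels can be compared between members only per length of exon. In CPM per kilobase of merged exons, the highest members in the control samples were ISG15 at 79.0, IFITM3 at 61.8, IFITM2 at 57.9, LGALS3BP at 48.5 and ADAR at 39.8. In the knockdown samples LGALS3BP stood first at 72.5, ahead of ISG15 at 54.4 and IFITM3 at 53.7. The IFIT genes lay between 11.4 and 21.7 CPM per kilobase in the control samples, and OAS1 and OAS2 at 0.151 and 0.288. These are means over 3 samples, and the order was not tested. Merged exons take in every annotated transcript of a gene, 867 bases for ISG15 and 13021 for OAS1. The transcripts present in these cells may be shorter, so the values and their order depend on the annotation.

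Within the TAK1 knockdown group, replicate 2 had the highest CPM for 23 of 49 tested members, and replicate 1 the lowest for 20. Within the control group, replicate 2 was highest for 20 and replicate 1 lowest for 20. The median deviation of a sample's members from the mean of its group on the log2 scale lay between -0.0242 and 0.0303.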
